A study of Homo sapiens with 18 samples.

Results

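The 36 genes described here make lysosomes and autophagosomes or control their transcription. They were taken by symbol from a list of lysosome and autophagy genes, and each was read through its probe set with the highest mean signal over all 18 arrays. The list was chosen with earlier results of these data known. Its counts set beside the shares of all genes therefore describe these genes and are not a test of them. All 36 were among the 18132 genes that the arrays measured through a probe set with 1 gene symbol. By role they were 14 lysosomal hydrolases, 3 lipid-handling helper proteins, 3 lysosomal membrane proteins and 6 parts of the proton pump. The others were 8 autophagosome genes and the 2 transcription factors TFEB and TFE3.

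The 18 arrays came from WiDr and HT29, established human colorectal cancer lines that carry an activated BRAF kinase. WiDr is held to derive from HT29, so the lines are not independent tumours. Each line had 3 vehicle arrays and 3 arrays treated with the RAF kinase inhibitor AZ628. WiDr had 3 more from cells transduced with a control shRNA (a short hairpin RNA, which silences a matching transcript) and 3 from cells transduced with an IKKα shRNA, aimed at the kinase that CHUK encodes. The labels gave no dose or time for AZ628, a single name for the IKKα shRNA, and no word on separate cultures; p-values therefore cover the spread of these arrays alone, and that spread may be technical.

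Lysosomes are acidic compartments in which hydrolases break down proteins, lipids and sugars. A proton pump, the V-ATPase, keeps them acidic. In autophagy a membrane sac encloses cytoplasm and fuses with a lysosome. The kinase ULK1 starts the process, and proteins of the ATG8 family (GABARAP, GABARAPL1, GABARAPL2 and LC3, encoded by MAP1LC3B) sit on the growing sac and bind cargo receptors such as SQSTM1. TFEB, TFE3 and MITF bind an E-box type sequence, TCACGTG, near many lysosomal genes. Phosphorylation by mTORC1 and by ERK, the kinase at the end of the RAF pathway, holds TFEB in the cytoplasm, so transcript levels of TFEB or TFE3 do not measure their activity.

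The promoter windows below are shown because they hold TCACGTG. RefSeq promoters of build GRCh38.p14 (250 bases before to 50 after a start site) were given for 26 of the 36 genes. On either strand, TCACGTG was present in 7 of the 26 genes (26.9%), against 1301 of all 35093 promoters (3.71%), or 1226 of 27305 genes (4.49%). The shorter core CACGTG, which every TCACGTG contains, was found in the same 7 genes, in 7.26% of all promoters and in 8.77% of all genes. The FOXO-type core GTAAACA was found in 1 of the 26, CTSL, in 3.42% of all promoters and in 4.19% of all genes. The windows lie before the start site, run 5′ to 3′ in the direction of the gene, and have TCACGTG or its reverse complement CACGTGA in capitals. A match describes letters and not a bound site.
NEU1, chr6:31862926-31862963, minus strand: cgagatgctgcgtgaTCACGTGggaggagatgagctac
CTSA, chr20:45891277-45891331, plus strand: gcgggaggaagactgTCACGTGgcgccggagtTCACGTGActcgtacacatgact
CTSD, chr11:1763953-1763990, minus strand: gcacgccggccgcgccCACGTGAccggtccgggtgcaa
GAA, chr17:80101489-80101571, plus strand: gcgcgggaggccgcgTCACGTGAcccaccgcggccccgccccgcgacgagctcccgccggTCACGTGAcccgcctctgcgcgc
LAMP1, chr13:113297031-113297118, plus strand: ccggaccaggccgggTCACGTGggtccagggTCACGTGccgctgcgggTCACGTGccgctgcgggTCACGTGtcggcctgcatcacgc
MCOLN1, chr19:7522567-7522623, plus strand: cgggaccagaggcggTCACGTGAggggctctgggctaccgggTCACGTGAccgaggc
ATP6V0D1, chr16:67481195-67481232, minus strand: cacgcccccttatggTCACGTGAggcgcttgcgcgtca
LAMP1 holds 2 further matches nearer its start site, 1 of them across it. Named without a window are ATP6V1A, PSAP, ASAH1, UVRAG, HEXA, CTSB, ATP6V1H, ATP6V1B2, ATP6V0E1 and LAMP2, which had no entry.

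On the arrays, all values are log2 signals, and differences are on the log2 scale. Same-group arrays correlated at 0.9971 to 0.9985 over genes and arrays of different groups at 0.9555 to 0.9963. CHUK was lower by 2.12 with IKKα shRNA than with control shRNA (log2 difference -2.12, SE 0.125, limma adjusted p = 4.11e-10), so the knockdown is visible in the arrays; with AZ628 CHUK also fell, by 0.43 in WiDr and by 0.37 in HT29. DUSP6, a phosphatase gene switched on by ERK, fell by 4.14 with AZ628 in WiDr and by 4.67 in HT29. Epithelial markers averaged 10.73 to 11.09 per array, but single genes moved in opposite directions. KRT20 fell from 12.29 to 11.07 with AZ628 in WiDr and from 11.23 to 10.13 in HT29. VIL1 rose from 9.43 to 10.42 and from 10.40 to 11.25, and was 9.02 with IKKα shRNA against 10.18 with control shRNA. Blood markers averaged 6.56 to 6.96, with LYZ highest at 13.84, and endothelial markers 5.23 to 5.66. Group means ran from 4.12 to 5.81 for CD14 and from 6.52 to 7.85 for CD68. The 6 fibroblast markers averaged 4.11 to 4.80 per array, with no gene's mean over the 18 arrays above 5.61, but were not level over the groups: 4.11 to 4.34 with vehicle and 4.35 to 4.47 with AZ628 in WiDr, 4.34 to 4.55 and 4.65 to 4.71 in HT29, and 4.11 to 4.17 with control shRNA against 4.69 to 4.80 with IKKα shRNA. Most of that shift was 1 gene, LUM, which codes for a collagen-binding proteoglycan: its group means were 3.13 with vehicle and 4.38 with AZ628 in WiDr, 4.41 and 6.18 in HT29, and 3.49 with control shRNA against 6.32 with IKKα shRNA, while COL1A2 and COL3A1 had lower means with AZ628 in both lines. Their part in the results was not tested.

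AZ628 raised most of the 36 genes in both lines. In WiDr 28 rose, 2 fell and 6 did not pass (limma, adjusted p under 0.05 over all genes), where 23.4% of all genes rose and 21.1% fell. In HT29 24 rose, 2 fell and 10 did not pass, where 22.5% of all genes rose and 21.0% fell. The median difference over the 36 was 0.56 in WiDr and 0.39 in HT29, against -0.001 and 0.005 over all genes. A total of 24 rose in both lines, as did 18.4% of all genes. These comparisons use different arrays but the same estimate of each gene's spread. All 3 AZ628 arrays lay above all 3 vehicle arrays for 29 of the 36 in WiDr (26.5% of all genes) and below them for 3 (24.6%), and in HT29 for 25 (25.6%) and 2 (23.5%). Of the 7 genes with TCACGTG in their window, NEU1, CTSA, CTSD, GAA and ATP6V0D1 rose in both lines, LAMP1 passed in WiDr alone and MCOLN1 in neither. That is a share similar to the 24 of all 36 genes, and a link between TCACGTG and the rise was not tested.

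**Figure D1:**
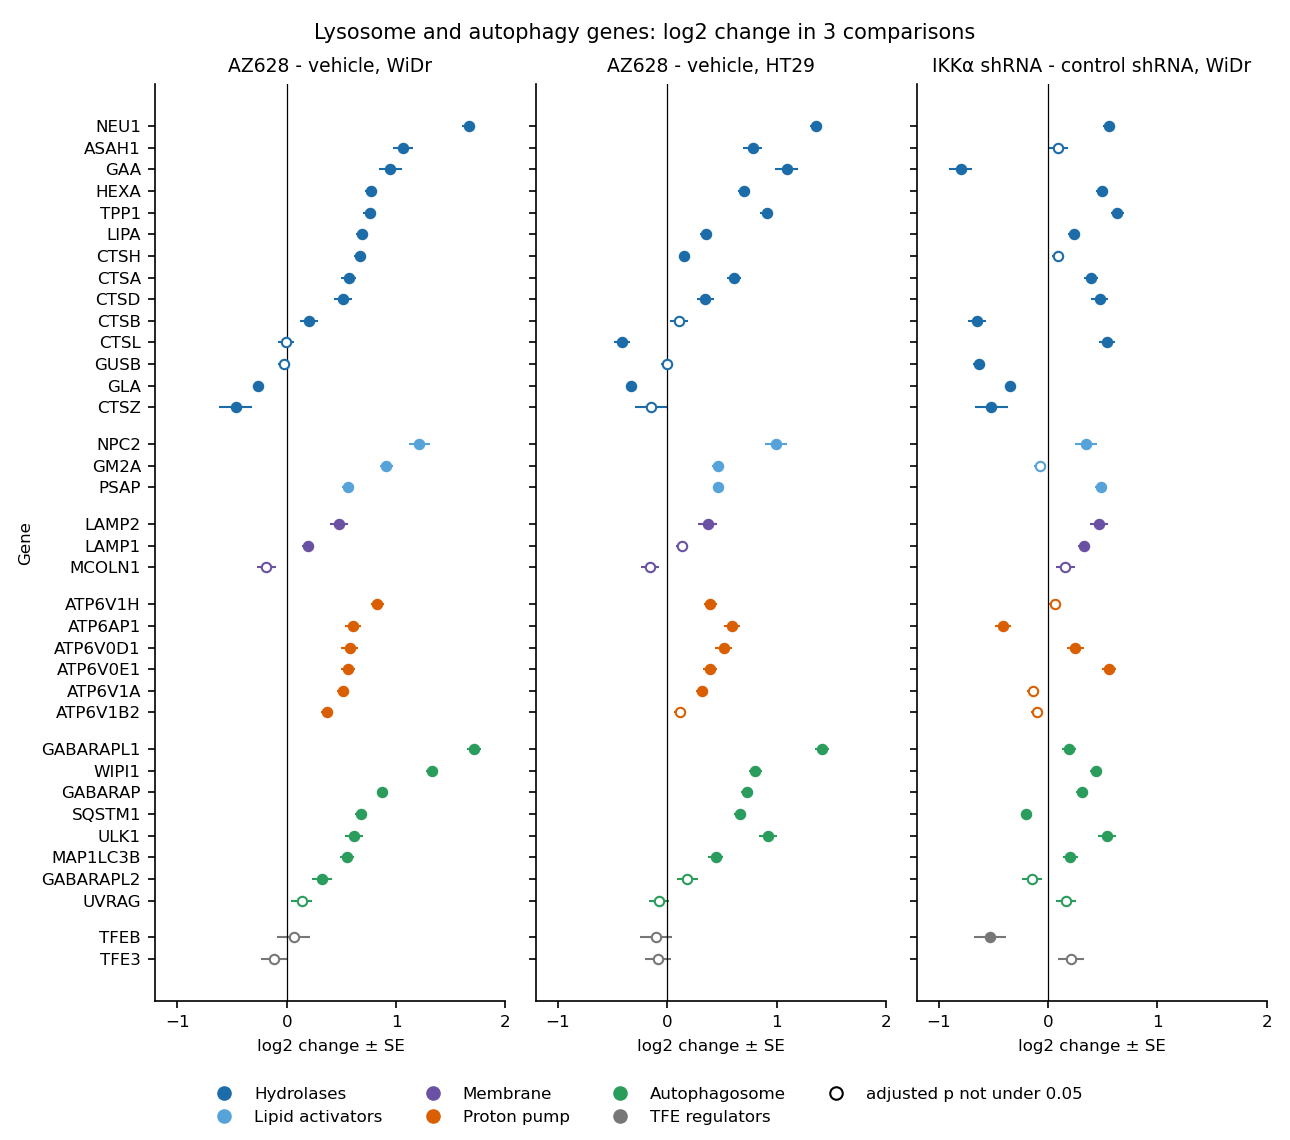
The log2 difference of each of the 36 genes (rows, by role) for AZ628 against vehicle in WiDr, AZ628 against vehicle in HT29 and IKKα shRNA against its control, with the standard error as a bar and filled points for genes that passed at adjusted p under 0.05. Most points lie right of 0 with AZ628 in both lines, led by GABARAPL1 and NEU1, and spread to both sides of 0 with IKKα shRNA.

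Among the hydrolases, 10 of 14 rose and 2 fell in WiDr, and 9 rose and 2 fell in HT29. NEU1, the sialidase that trims sialic acid from glycoproteins, read 9.48, 9.44 and 9.42 with vehicle and 11.11, 11.14 and 11.08 with AZ628 in WiDr, and 9.93, 9.85 and 9.84 against 11.20, 11.25 and 11.25 in HT29. The AZ628 arrays lay far above the vehicle arrays in both lines. The rise was 1.66 in WiDr (SE 0.0576, adjusted p = 1.57e-13), or 3.17-fold, and 1.36 in HT29 (SE 0.0576, adjusted p = 3.05e-12), or 2.56-fold. CTSA, which protects NEU1 in a complex, rose by 0.56 and 0.61.

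GAA, which digests glycogen in lysosomes, read 6.09, 6.07 and 6.18 with vehicle and 7.08, 7.0 and 7.11 with AZ628 in WiDr, and 6.09, 6.16 and 6.14 against 7.29, 7.21 and 7.16 in HT29. The lines began at the same signal and ended close together, with rises of 0.95 (SE 0.105) and 1.09 (SE 0.105). Its dimmer second probe set gave 0.09 and 0.06, and the mean of both rose by 0.52 and 0.58. ASAH1, the acid ceramidase, read 9.24, 9.03 and 9.12 with vehicle and 10.26, 10.20 and 10.13 with AZ628 in WiDr, and 8.35, 8.57 and 8.23 against 9.17, 9.02 and 9.29 in HT29. It rose by 1.06 (SE 0.0901) and 0.78 (SE 0.0901), and HT29 with AZ628 only reached the range of WiDr with vehicle. Among other hydrolases, HEXA, a subunit of β-hexosaminidase, rose by 0.77 and 0.70, the peptidase TPP1 by 0.76 and 0.91, and LIPA, the acid lipase, by 0.69 and 0.35. TPP1 in WiDr differed by 0.18 (adjusted p = 0.359) on the brightest of its 3 probe sets whose names end in neither _s_at nor _x_at. The other 2 gave 0.08 and -0.12.

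The cathepsins, the lysosomal proteases, did not move together. CTSD rose by 0.52 in WiDr and 0.35 in HT29 and CTSH by 0.67 and 0.15. CTSL read 7.76, 7.78 and 7.93 with vehicle and 7.75, 7.99 and 7.71 with AZ628 in WiDr, but 8.42, 8.28 and 8.21 against 7.92, 7.88 and 7.86 in HT29. Its arrays overlapped in WiDr and separated in HT29, where it fell by 0.42 (log2 difference -0.42, SE 0.0742, adjusted p = 0.000145). CTSZ read 11.50, 11.58 and 11.46 with vehicle and 10.93, 11.29 and 10.93 with AZ628 in WiDr, a difference of -0.46 (SE 0.151, adjusted p = 0.0176), and differed by -0.15 in HT29 without passing. CTSB rose by 0.21 in WiDr (adjusted p = 0.0475) and differed by 0.11 in HT29.

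Several of these cathepsin calls lay near the threshold and were lost when single arrays were left out. CTSB no longer passed without AZ628 array 1, 2 or 3 or without vehicle array 2 or 3 (0.16 to 0.23, adjusted p between 0.0580 and 0.175), and CTSZ not without AZ628 array 1 or 3 or vehicle array 2 (-0.43 to -0.40, adjusted p 0.0570 to 0.0711). CTSH in HT29 was lost without AZ628 array 3 (0.13, adjusted p = 0.0841) or vehicle array 1 (0.13, adjusted p = 0.0865).

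GLA, the α-galactosidase, was the 1 gene of the 36 that fell in both lines, as 17.0% of all genes did. It read 10.67, 10.63 and 10.66 with vehicle and 10.44, 10.37 and 10.38 with AZ628 in WiDr, and 10.52, 10.58 and 10.51 against 10.22, 10.16 and 10.25 in HT29. Every AZ628 array lay below every vehicle array of its line, with differences of -0.26 (SE 0.0489) and -0.33 (SE 0.0489). Its 3 probe sets were all lower, down to -1.85 in WiDr and -1.30 in HT29 on the dimmest of them. GUSB, a glucuronidase often used as a reference gene, differed by -0.02 and 0.00.

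All 3 helper proteins rose in both lines. NPC2, which carries cholesterol out of the lysosome lumen, read 11.63, 11.31 and 11.39 with vehicle and 12.67, 12.72 and 12.58 with AZ628 in WiDr, and 11.20, 11.38 and 11.24 against 12.33, 12.02 and 12.46 in HT29. The groups were well apart in both lines, by 1.21 (SE 0.0992) and 0.996 (SE 0.0992). GM2A, the GM2 ganglioside activator, rose by 0.91 and 0.46, and PSAP, the precursor of the saposins, by 0.56 and 0.47. Of the membrane proteins, LAMP2 rose by 0.48 and 0.37. LAMP1 rose by 0.20 in WiDr and in HT29 differed by 0.14 (adjusted p = 0.05004, just above the threshold; 0.16 and 0.0486 without AZ628 array 3). The calcium channel gene MCOLN1 differed by -0.19 and -0.16 and did not pass in either line, although without HT29 vehicle array 2 it passed in HT29 (-0.275, adjusted p = 0.00550).

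The proton pump genes rose in step in WiDr, 6 of 6, and 5 of 6 rose in HT29. ATP6V1H, a subunit of the pump's cytoplasmic V1 part, read 9.34, 9.47 and 9.40 with vehicle and 10.20, 10.23 and 10.26 with AZ628 in WiDr, and 9.28, 9.16 and 9.33 against 9.70, 9.58 and 9.67 in HT29. The vehicle arrays of the lines were close together, while the AZ628 arrays of WiDr stood above those of HT29, with rises of 0.83 (SE 0.0567) and 0.39 (SE 0.0567). The accessory subunit ATP6AP1 rose by 0.61 and 0.59, ATP6V0D1 and ATP6V0E1 of the membrane part V0 by 0.58 and 0.56 in WiDr and by 0.52 and 0.39 in HT29, and ATP6V1A by 0.52 and 0.32. ATP6V1B2 rose by 0.37 in WiDr and differed by 0.11 in HT29, where it passed without vehicle array 2 (0.15, adjusted p = 0.0490).

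Of the 8 autophagosome genes 7 rose in WiDr and 6 in HT29. GABARAPL1 read 7.18, 7.29 and 7.32 with vehicle and 9.03, 9.01 and 8.90 with AZ628 in WiDr, and 7.90, 7.88 and 7.93 against 9.44, 9.32 and 9.18 in HT29. It had the largest rise of the 36 genes in each line, 1.71 (SE 0.0649, adjusted p = 4.83e-13; 3.28-fold) and 1.41 (SE 0.0649, adjusted p = 7.89e-12; 2.66-fold). Its probe set is of a kind that may bind related sequences. The other 2 with signals above 6 gave 0.97 and 1.27 in WiDr and 0.81 and 1.15 in HT29, and another, with a mean of 3.99, gave -0.13 and -0.01.

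WIPI1, which binds the lipid PI3P on the growing sac, read 6.88, 6.97 and 6.97 with vehicle and 8.18, 8.28 and 8.34 with AZ628 in WiDr, and 8.03, 8.09 and 8.03 against 8.85, 8.86 and 8.86 in HT29. WiDr with AZ628 ended only slightly above HT29 with vehicle. The rises were 1.33 (SE 0.0573) and 0.80 (SE 0.0573), and both of its probe sets agreed (1.33 to 1.37 and 0.80 to 0.94). GABARAP rose by 0.87 and 0.73, MAP1LC3B by 0.55 and 0.44, SQSTM1 by 0.68 and 0.67, and ULK1 by 0.62 and 0.92. GABARAPL2 rose by 0.32 in WiDr and differed by 0.18 in HT29, where it passed without vehicle array 2 (0.26, adjusted p = 0.04997). UVRAG, which takes part in autophagosome maturation, differed by 0.14 and -0.08 and did not pass.

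The transcripts of the regulators did not pass with AZ628 in either line. TFEB read 7.94, 8.33 and 8.09 with vehicle and 8.05, 8.09 and 8.41 with AZ628 in WiDr, and 8.42, 7.78 and 8.11 against 8.10, 8.03 and 7.87 in HT29. These arrays overlapped in both lines, with differences of 0.06 (SE 0.150) and -0.10 (SE 0.150). TFE3 differed by -0.11 (SE 0.121) and -0.08 (SE 0.121).

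**Figure D2:**
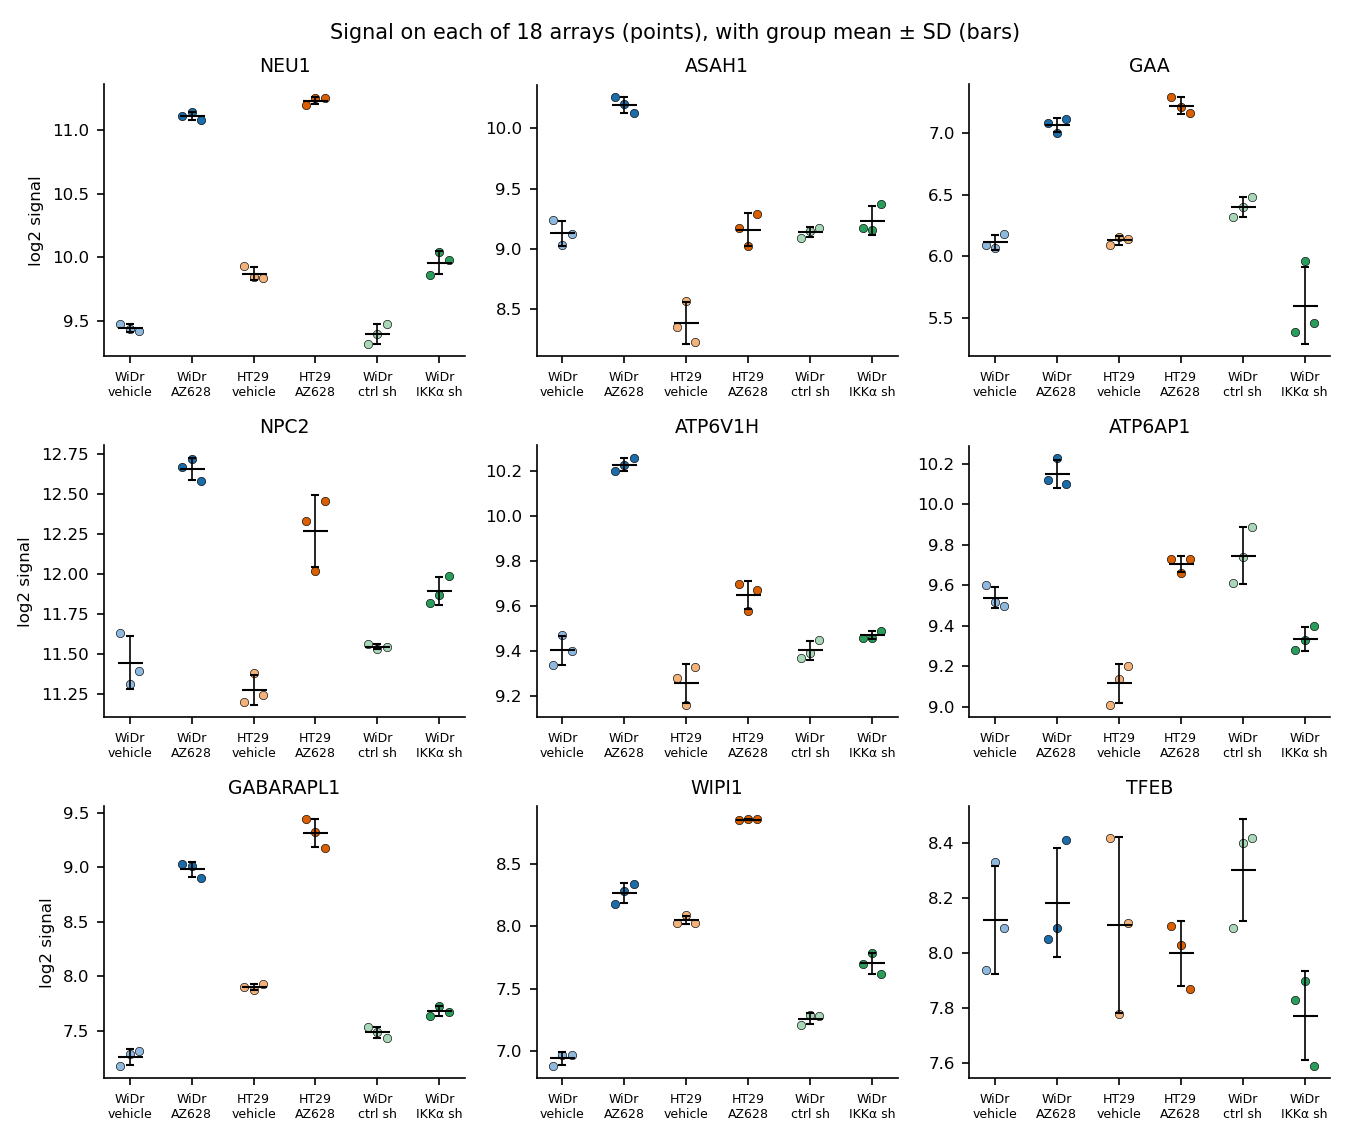
Log2 signal of 9 of the genes on every array (points), in 6 groups of 3, with the group mean and SD as bars; ctrl sh and IKKα sh are the shRNA groups. NEU1, GABARAPL1 and WIPI1 stand higher with AZ628 in both lines, GAA stands higher with AZ628 and lower with IKKα shRNA, and TFEB overlaps between vehicle and AZ628; levels of different genes are not comparable.

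The size of the AZ628 effect was compared between the lines directly. Of the 36 genes 9 had a smaller or more negative effect in HT29 and 0 a larger one, where 5.13% of all genes were lower and 4.06% higher. At an unadjusted p under 0.05 (limma) 1 was higher and 11 were lower. The share of all genes at that threshold was not counted, so this count has nothing to be set against. On simulated data this comparison recovered 58% of changes of 1.5-fold. Listed from the smallest adjusted p, CTSH differed by -0.51 (SE 0.0725, adjusted p = 0.000148), WIPI1 by -0.52 (SE 0.0810, adjusted p = 0.000343), GM2A by -0.45 (SE 0.0798, adjusted p = 0.00117), ATP6V1H by -0.44 (SE 0.0802, adjusted p = 0.00161) and LIPA by -0.33 (SE 0.0799, adjusted p = 0.0131). CTSL followed with -0.41, NEU1 with -0.31, ATP6V1B2 with -0.26 and GABARAPL1 with -0.30. With vehicle, CTSH, WIPI1, GM2A, LIPA, CTSL, NEU1 and GABARAPL1 were already higher in HT29 than in WiDr, by 0.43 to 1.11, so that their AZ628 levels lay closer together than their vehicle levels. The vehicle arrays enter both values.

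Leaving out single arrays ended 4 of these calls. CTSL did not pass without HT29 vehicle array 1 (-0.35, adjusted p = 0.0510), and NEU1 not without WiDr AZ628 array 2, WiDr vehicle array 2 or 3, HT29 AZ628 array 1 or HT29 vehicle array 1 (adjusted p 0.0510 to 0.0617). ATP6V1B2 (adjusted p = 0.0355) and GABARAPL1 (adjusted p = 0.04998, just under the threshold) were lost without most of the 12 arrays singly, at adjusted p up to 0.0917 and 0.121. ATP6V1B2 still passed only without array 3 of WiDr AZ628, HT29 AZ628 or HT29 vehicle, and GABARAPL1 only without WiDr AZ628 array 3 or HT29 AZ628 array 1.

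**Figure D3:**
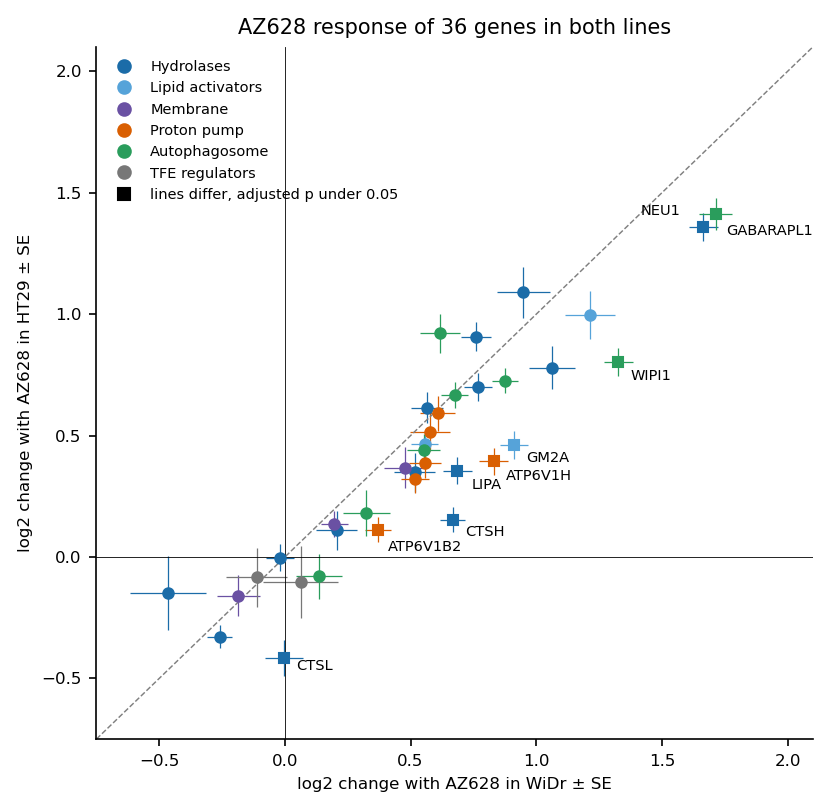
The AZ628 effect in HT29 (vertical) against that in WiDr (horizontal) for the 36 genes, as log2 differences with standard errors and the line of equal effects. The 9 genes whose effects differed between the lines are named, and all lie below the line.

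With vehicle alone, 15 of the 36 genes were higher in HT29 than in WiDr and 6 lower, where 16.9% and 15.3% of all genes were. WIPI1 was higher by 1.11 (SE 0.0573), GM2A by 0.87 and LIPA by 0.83, while ASAH1 was lower by 0.75 (log2 difference -0.75), CTSB by 0.72 (-0.72) and ATP6V1B2 by 0.67 (-0.67).

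With IKKα shRNA rises outnumbered falls among the 36 genes, and the falls were near the share of all genes. Against control shRNA 18 rose, 8 fell and 10 did not pass, where 15.9% of all genes rose and 19.0% fell. The median difference was 0.20 against 0.024 over all genes, and none of the 36 reached a 2-fold change. All IKKα shRNA arrays lay above all control shRNA arrays for 21 of the 36 (23.3% of all genes) and below them for 10 (23.4%). Of the 24 genes that rose with AZ628 in both lines, 16 also rose here (66.7%). Of all genes that rose with AZ628 in both lines, 26.5% did. Over all genes, 4.88% rose in all 3 comparisons, which share no arrays but share the estimate of each gene's spread. The 16 genes were NEU1, CTSA, CTSD, HEXA, TPP1, LIPA, PSAP, NPC2, LAMP2, ATP6V0D1, ATP6V0E1, GABARAPL1, GABARAP, MAP1LC3B, ULK1 and WIPI1.

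TPP1 had the largest of these rises. It read 10.59, 10.71 and 10.61 with control shRNA and 11.25, 11.32 and 11.25 with IKKα shRNA. That was a clear separation and a rise of 0.64 (SE 0.0605, adjusted p = 1.93e-07). However, the brightest of its 3 probe sets without an _s_at or _x_at ending gave 0.16 (adjusted p = 0.436), and the other 2 gave 0.36 and 0.33. NEU1 read 9.32, 9.40 and 9.48 against 9.86, 10.04 and 9.98, a rise of 0.56 (SE 0.0576, adjusted p = 5.08e-07). That was below its AZ628 effect in WiDr (difference of effects -1.105, SE 0.0815, adjusted p = 4.05e-09). ULK1 rose by 0.54, CTSL by 0.54, PSAP by 0.49 and WIPI1 by 0.44. On their brightest probe sets the rises of ATP6V0D1 (0.25), MAP1LC3B (0.20) and GABARAPL1 (0.19) were each lost without 4 of the 6 arrays singly. For ATP6V0D1 these were array 1 or 2 of either group (limma adjusted p 0.0504 to 0.0868). For MAP1LC3B they were control shRNA array 1 or 2 or IKKα shRNA array 2 or 3 (0.0505 to 0.109). For GABARAPL1 they were array 2 or 3 of either group (0.0566 to 0.1085). Other probe sets gave 0.20, 0.82 and 0.88 for MAP1LC3B, and 0.39, 0.46 and, at a mean signal of 3.99, -0.11 for GABARAPL1. All 7 probe sets of ATP6V0D1 lay between -0.07 and 0.42. HEXA (0.50) gave 0.27 (adjusted p = 0.205) on the brightest of its probe sets without an _s_at or _x_at ending.

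For 3 genes the directions were opposed, rising with AZ628 in both lines and falling with IKKα shRNA: GAA, ATP6AP1 and SQSTM1. That is 12.5% of the 24, against 33.2% of all genes that rose in both lines and 6.12% of all genes. GAA read 6.32, 6.40 and 6.48 with control shRNA and 5.39, 5.96 and 5.46 with IKKα shRNA. All IKKα shRNA arrays lay lower, array 2 less so, and the difference was -0.80 (SE 0.105, adjusted p = 9.31e-06), with 0.07 on its dimmer probe set and -0.36 for the mean of both. ATP6AP1 read 9.61, 9.74 and 9.89 against 9.28, 9.33 and 9.40, a difference of -0.41 (SE 0.0715). SQSTM1 differed by -0.20 (adjusted p = 0.00767) and was not settled. It was lost without IKKα shRNA array 1 (-0.16, adjusted p = 0.0504) and gave 0.08 against vehicle. On the probe set without an _s_at or _x_at ending it reversed to 0.23 (adjusted p = 0.0179).

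Other falls with IKKα shRNA were in CTSB, GUSB, CTSZ, GLA and TFEB. CTSB read 10.93, 10.96 and 11.02 with control shRNA and 10.25, 10.24 and 10.47 with IKKα shRNA, a difference of -0.65 (SE 0.0808). GUSB read 10.79, 10.90 and 10.82 against 10.20, 10.20 and 10.21, a difference of -0.63 (SE 0.0554, adjusted p = 6.55e-08), while it did not pass with AZ628. Both genes thus separated fully by group here. TFEB read 8.09, 8.40 and 8.42 against 7.83, 7.90 and 7.59, a difference of -0.53 (SE 0.150, adjusted p = 0.00999). It did not pass without IKKα shRNA array 3 (-0.44, adjusted p = 0.0520), as the mean of its probe sets (-0.21, adjusted p = 0.182) or against vehicle (-0.35, adjusted p = 0.0795). CTSZ differed by -0.52 (adjusted p = 0.0125), was lost without control shRNA array 3 (-0.33, adjusted p = 0.0855) and gave 0.02 against vehicle. GLA differed by -0.35 (SE 0.0489), but 1 of its 3 probe sets gave 0.36, and the mean of the 3 was -0.08 (adjusted p = 0.285). ASAH1, CTSH, GM2A, ATP6V1A and ATP6V1H, which rose with AZ628 in both lines, differed by -0.135 to 0.096 with IKKα shRNA and did not pass. For 3 of these that depends on the setting. GM2A gave -0.57 (adjusted p = 4.17e-06) on the brighter of its probe sets without an _s_at or _x_at ending, and CTSH gave 0.46 against vehicle (adjusted p = 1.58e-06). ATP6V1A passed against vehicle (-0.23), and without the dimmest 25% of genes or with a trended robust variance (-0.135 in both). It also passed without IKKα shRNA array 3 (-0.17, adjusted p = 0.0407).

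The 2 perturbations of WiDr were compared on the same genes. The IKKα shRNA effect lay below the AZ628 effect for 22 of the 36 genes and above it for 2, CTSL and MCOLN1, where 22.3% and 20.1% of all genes did. GAA, on its brighter probe set, differed most (-1.74, SE 0.149), followed by GABARAPL1 on its brightest (-1.52, SE 0.0918). On 2 other GABARAPL1 probe sets the effects were closer, 0.97 and 1.27 with AZ628 and 0.39 and 0.46 with IKKα shRNA. Each effect has its own control here, and these controls themselves differed in 8 of the 36 genes: 7 were higher with control shRNA than with vehicle and 1 lower (all genes 11.6% and 10.6%), among them CTSZ by 0.54, CTSH by 0.37, WIPI1 by 0.32 and SQSTM1 by 0.28. Against vehicle, IKKα shRNA raised 20 of the 36 and lowered 6 (all genes 16.4% and 19.8%).

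LAMP2, whose product has 3 splice isoforms with different membrane tails, was read by 9 probe sets, and these were examined one by one after their values were seen. They were fitted among 44994 probe sets, of which 39.9% passed with AZ628 in WiDr, 38.9% with AZ628 in HT29 and 30.3% with IKKα shRNA. AZ628 raised all 9 in WiDr and 8 in HT29, the ninth differing by 0.27 (adjusted p = 0.0713). With IKKα shRNA 5 rose and 4 fell, where 15.8% of probe sets fell. A probe set designed on the RefSeq transcript of isoform C read 7.20, 6.67 and 6.96 with vehicle and 7.96, 8.06 and 7.99 with AZ628, then 7.10, 7.40 and 7.37 with control shRNA and 6.01, 6.25 and 6.17 with IKKα shRNA. It was highest with AZ628 and lowest with IKKα shRNA, without overlap. The AZ628 rise was 1.06 (SE 0.122) and the shRNA difference -1.15 (SE 0.122, adjusted p = 7.39e-07), or -0.80 against vehicle. The second probe set designed on that transcript gave 1.26 and -1.11. The remaining probe sets that fell with IKKα shRNA were designed on other sequences and gave -1.05 and -0.30. The brightest LAMP2 probe set read 10.45, 10.40 and 10.68 with control shRNA and 10.95, 10.91 and 11.07 with IKKα shRNA, a rise of 0.47. The mean over the 9 differed by -0.05 with IKKα shRNA, so a single LAMP2 value does not describe this comparison. Which transcripts each probe set detects was not tested.

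**Figure D4:**
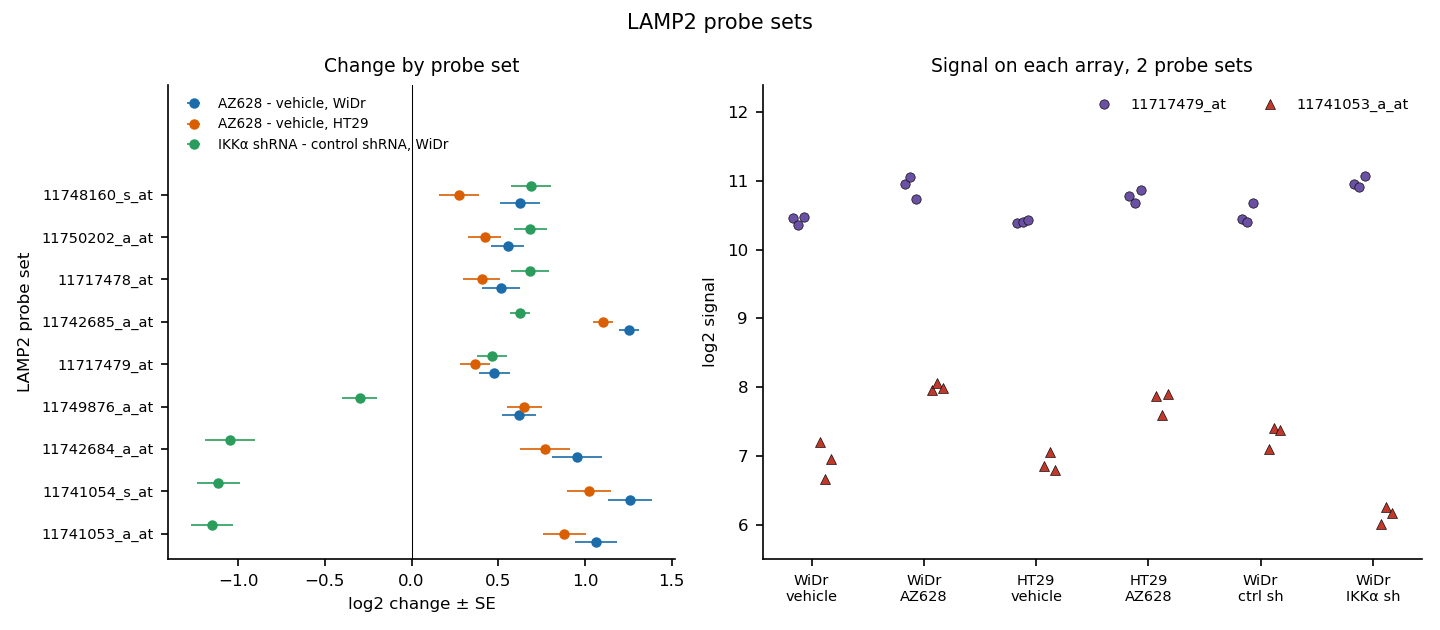
Log2 difference with standard error for each of the 9 LAMP2 probe sets under AZ628 in WiDr, AZ628 in HT29 and IKKα shRNA. On the right are the signals on every array of a probe set designed on the isoform C transcript (triangles) and of the brightest probe set (circles). AZ628 differences lie right of 0 for all 9, whereas with IKKα shRNA 5 lie right and 4 left of it; levels of different probe sets are not comparable.

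Beyond the 36, 138 of 148 further lysosome, autophagy and mTORC1 genes were measured. With AZ628 78 rose and 22 fell in WiDr, and 67 rose and 22 fell in HT29; with IKKα shRNA 44 rose and 23 fell. Over all genes 23.4% rose and 21.1% fell in WiDr, 22.5% and 21.0% in HT29, and 15.9% and 19.0% with IKKα shRNA, and the falls among the 138 (22 or 23) were no larger a share than that. Their median differences were 0.26, 0.17 and 0.07. Of 27 further hydrolases 16 rose in WiDr and 15 in HT29, with 5 falling in each. With IKKα shRNA 4 rose and 6 fell, near the shares of all genes. The cysteine cathepsins CTSS and CTSV rose by 1.80 and 1.77 in WiDr and less in HT29 (0.90 and 0.53; differences of -0.90 and -1.24, adjusted p = 0.000264 and 8.28e-09). The collagen-degrading CTSK rose by 1.36 and 1.35. IDS, a sulfatase that digests heparan and dermatan sulfate, fell by 0.72 and by 0.31 with AZ628 and rose by 1.16 with IKKα shRNA.

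Of 15 further proton pump genes 8 rose and 4 fell in WiDr and 7 rose and 4 fell in HT29, falls near the shares of all genes; with IKKα shRNA 7 rose and 1 fell. ATP6V1B1, the V1 subunit of acid-secreting epithelia, read 5.58, 5.77 and 5.53 with vehicle and 8.88, 8.83 and 8.85 with AZ628 in WiDr, and 5.67, 5.49 and 5.57 against 8.04, 7.94 and 8.07 in HT29. It went from dim to bright in both lines, by 3.22 (SE 0.0737) and 2.44 (SE 0.0737), while ATP6V1B2, the alternative form of the same subunit, differed by 0.37 and 0.11. ATP6V0A2 fell by 1.18 and by 0.77. Of 21 further membrane and transport genes 11 rose and 3 fell in WiDr and 8 rose and 3 fell in HT29. SIDT2 rose by 1.01 and 0.75, SCARB2, the receptor that carries β-glucocerebrosidase to lysosomes, by 0.72 and 0.85, and the cystine exporter CTNS fell by 0.60 in each. With IKKα shRNA 9 rose and 6 fell, where 15.9% of all genes rose and 19.0% fell. LAPTM4A rose by 1.31 and the sialic acid exporter SLC17A5 by 0.97. For LAPTM4A control shRNA itself lay 0.85 below vehicle (log2 difference -0.85). Against vehicle IKKα shRNA raised LAPTM4A by 0.45 and SLC17A5 by 1.09.

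Of 43 further autophagy genes 24 rose and 5 fell in WiDr, 20 rose and 4 fell in HT29, and 14 rose and 7 fell with IKKα shRNA, where the falls were near the 19.0% of all genes. TP53INP1, a p53 target whose product binds ATG8 proteins, read 6.71, 6.98 and 6.93 with vehicle and 11.03, 11.07 and 11.09 with AZ628 in WiDr, and 7.34, 7.50 and 7.74 against 11.16, 11.18 and 11.12 in HT29. The lines met at the same AZ628 signal, with rises of 4.19 (SE 0.114) and 3.62 (SE 0.114), and IKKα shRNA gave 0.04. TP53INP2 rose by 2.85 and 2.53. The mitophagy receptor BNIP3L rose by 1.43 and 1.02 and the cargo receptor OPTN by 1.38 and 0.76, and both fell with IKKα shRNA (-0.48 and -0.55).

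Of 32 genes that control TFE factors or mTORC1, 19 rose and 5 fell in WiDr, 17 rose and 6 fell in HT29, and 10 rose and 3 fell with IKKα shRNA; the falls with AZ628 were near the shares of all genes. SESN1, a sestrin that restrains mTORC1, rose by 2.15 and 2.42 with AZ628 and fell by 0.87 with IKKα shRNA. SESN2 rose by 0.42 and 0.65 and by 1.51 with IKKα shRNA. DDIT4, which also restrains mTORC1, rose by 1.17 and 1.14, and by 2.71 with IKKα shRNA; control shRNA itself lay 0.96 below vehicle (log2 difference -0.96), and against vehicle IKKα shRNA raised it by 1.75. FOXO3, a transcription factor of autophagy genes, rose by 1.41 and 1.52 and gave 0.07 with IKKα shRNA, whereas FOXO1 fell by 0.16 and by 0.70 and rose by 1.06 with IKKα shRNA. Of the genes that place TFEB and TFE3 under mTORC1 at the lysosome, FLCN rose by 0.61 and 0.90 with AZ628. FNIP1 rose by 0.78 and 0.83 and RRAGC by 0.88 and 0.86. With IKKα shRNA RRAGC rose by 0.69, while FLCN (-0.04) and FNIP1 (0.30) did not pass. MITF, FNIP2 and RRAGD did not pass in any of the 3 comparisons. NPRL3, a subunit of the GATOR1 brake on mTORC1, fell by 1.245 and by 1.21 with AZ628 and rose by 0.51 with IKKα shRNA.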

How the data were processed

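The labels' protocols describe a whole-transcript assay on 100 ng RNA per array. The deposited log2 values were produced by the authors using RMA; the submitters' processing notes name it beside limma and R 3.0.2. RMA draws arrays to a common distribution and compresses dim signals. Of 49395 probe sets, 44994 had 1 gene symbol, 1832 several and 2569 none in the platform annotation given; each of 18132 genes used its probe set with the highest mean.

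All 18 arrays and all genes entered 1 linear model of the 6 groups in limma 3.58.1 (R 4.3.3) (12 residual degrees of freedom, prior 4.49, two-sided, Benjamini-Hochberg over genes within each of 8 comparisons, threshold 0.05). On simulated data with 200 changed genes, 90% of 1.5-fold changes were recovered for AZ628 in WiDr, 87% in HT29 and 95% for IKKα shRNA, with 13, 9 and 5 false calls. On the arrays far more genes passed, 4249 higher and 3830 lower with AZ628 in WiDr. The simulated recovery and false calls therefore need not hold for the arrays. Depth has no meaning for arrays; 3 per group limits precision. The members and lists were chosen with earlier results of these data known. Named genes were all members, up to 4 passing genes with the largest change per wider list and comparison, and fixed mTORC1 genes; LAMP2 probe sets were examined singly after their values were seen. Alternatives were other probe set choices, filters, normalization, variance models, a replicate block and left-out arrays. Figures were drawn with matplotlib 3.10.9.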

Additional observations from a re-analysis of the deposited data

Results flagged for a closer look

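For 9 genes the AZ628 effect differed between the lines by the test of the difference itself (limma, adjusted p under 0.05), with the value given as the effect in HT29 minus that in WiDr. They were CTSH (-0.513), WIPI1 (-0.523), GM2A (-0.450), ATP6V1H (-0.436), LIPA (-0.331), CTSL (-0.413), NEU1 (-0.306), ATP6V1B2 (-0.258) and GABARAPL1 (-0.301). For all 9 the effect, not the signal, was smaller or more negative in HT29. They are 9 of the 36 genes, with 0 passing in the other direction. Of all genes 5.13% passed lower and 4.06% higher. CTSL is the 1 gene of them that fell in HT29; ATP6V1B2 did not pass there, and the other 7 rose in both lines. Other settings ended 6 of these calls. On probe sets without an _s_at or _x_at ending LIPA gave -0.29 (adjusted p = 0.305), ATP6V1B2 -0.33 (adjusted p = 0.0664) and GABARAPL1 -0.16 (adjusted p = 0.707). With probe sets averaged, CTSH gave -0.26 (adjusted p = 0.0555) and GABARAPL1 -0.12 (adjusted p = 0.641), and after repeated quantile normalization NEU1 gave -0.27 (adjusted p = 0.0727) and GABARAPL1 -0.26 (adjusted p = 0.0941). With only the groups compared in the fit, CTSL (adjusted p = 0.0554), ATP6V1B2 (adjusted p = 0.0849) and GABARAPL1 (adjusted p = 0.100) did not pass.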

How the results depend on the processing

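Leaving out each array in turn gave 27 to 28 members rising and 1 to 2 falling with AZ628 in WiDr, 23 to 26 and 2 to 3 in HT29, 15 to 17 and 7 to 8 with IKKα shRNA, and 0 and 5 to 9 for the difference between lines. For the IKKα shRNA effect minus the AZ628 effect it gave 1 to 2 higher and 20 to 23 lower, for HT29 against WiDr 13 to 14 and 6 to 7, for control shRNA against vehicle 4 to 7 and 0 to 1, and for IKKα shRNA against vehicle 18 to 20 and 5 to 6. A 1.5-fold minimum left 16 rising and 0 falling in WiDr, 13 and 0 in HT29, 1 and 3 with IKKα shRNA, 0 lower for the line difference, 0 and 14 for the difference of perturbations, 4 higher in HT29 with vehicle, 0 and 0 for control shRNA and 2 and 0 for IKKα shRNA against vehicle; for all but the first 4 comparisons it was chosen after seeing the data. Averaging each gene's probe sets, 1 member (TPP1) had a larger effect in HT29 and 4 were lower with control shRNA. For control shRNA against vehicle, repeating quantile normalization gave 4 higher and 2 lower. The lower count was 0 without _s_at and _x_at probe sets, 2 without the dimmest 25% of genes and 0 with only the groups compared. Directions reversed for CTSZ (0.023) and SQSTM1 (0.080) with vehicle as the control of IKKα shRNA. They also reversed for LAMP2 (-0.051) with the mean of probe sets and for SQSTM1 (0.232) without _s_at and _x_at probe sets. The cause was not tested.

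With the replicate number as a block, CTSB in WiDr (0.206, adjusted p = 0.0505) and GABARAPL1 in the line difference (-0.301, adjusted p = 0.0645) no longer passed, and no other call of a member changed in the 4 main comparisons. Same-numbered arrays correlated in their deviations at -0.233 to 0.178, so the numbers were not taken to pair the arrays. Signals near background, such as a GABARAPL1 probe set with a mean of 3.99, limit what small differences can show.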
